A study of Mus musculus with 4 samples.

Results

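Interferon-stimulated genes are transcripts that cells switch on when type I or type II interferon binds its receptor. The set described here is a list of 34 gene symbols, chosen with earlier results of these data known. The rule that finds the probe sets of these symbols uses no measured value. Every probe set whose annotation gave one of these symbols and no other was taken. In all, 32 of the 34 genes had such a probe set, out of 18193 genes with a single symbol on the array, and they were covered by 51 probe sets. Isg15 and Ifi44 had no probe set with that symbol alone and have no value here. Mx2 had 1 probe set that lay below the signal filter, with readings between 9.81 and 14.5, so 31 genes and 42 probe sets were kept.

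The RNA was from primary palatal mesenchymal cells, which form the connective tissue of the shelves that become the roof of the mouth. The embryos were wild-type mice of an outbred stock at day 14 of gestation. One culture was untreated, 1 was given TGF-beta2 for 120 minutes, and the other two received an inhibitor for 60 minutes followed by TGF-beta2 for 120 minutes. SB431542 blocks the kinase of the type I TGF-beta receptor, whereas 5Z-7-Oxozeaenol (oxozeaenol below) blocks the kinase Tak1. Their doses were not part of the labels. Each condition was measured on 1 Affymetrix 3′ expression array, so no spread between cultures exists, no test was possible and no p-value is given. No array holds an inhibitor without TGF-beta2 and none holds a vehicle control. The untreated array is the shared denominator of 3 comparisons, and a reading particular to that array would move all 3 together.

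As background, type I interferons act through Ifnar1 and Ifnar2 and the kinases Jak1 and Tyk2. Stat2 and Irf9 are parts of the ISGF3 complex, which binds interferon-stimulated response elements (ISRE) in promoters. Interferon gamma acts at GAS elements, and Irf1 is a well-known target of that route. The products sense foreign nucleic acid, block viral replication, amplify the response (Irf7, Stat2, Irf9) or limit it (Usp18). Macrophages and fibroblasts can keep a low tonic level of these transcripts in culture.

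The promoters of 4 of the 6 genes at least 2-fold lower on any array than untreated, and that of Irf1, which did not follow them, are shown as the 200 bases before the annotated start, from RefSeq on GRCm38.p6. Capitals mark an ISRE core, searched on both strands as GAAA, any 2 bases and again GAAA. In Irf1 they mark a GAS core, searched as TTCNNNGAA, which reads the same on both strands. The stretches lie at chr12:26456453-26456652 on the minus strand (Rsad2), chr12:26469015-26469214 on the plus strand (Cmpk2), chr19:34640689-34640888 (Ifit1) and chr19:34583329-34583528 (Ifit3) on the plus strand, and chr11:53769814-53770013 on the plus strand (Irf1, which has 2 annotated start windows). The other two of the 6, Mx1 and Rtp4, have no entry in the promoter table used.
Rsad2: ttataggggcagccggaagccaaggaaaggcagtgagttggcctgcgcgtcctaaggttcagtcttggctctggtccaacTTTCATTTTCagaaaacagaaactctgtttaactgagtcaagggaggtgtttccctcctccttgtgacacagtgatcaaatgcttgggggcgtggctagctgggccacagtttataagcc
Cmpk2: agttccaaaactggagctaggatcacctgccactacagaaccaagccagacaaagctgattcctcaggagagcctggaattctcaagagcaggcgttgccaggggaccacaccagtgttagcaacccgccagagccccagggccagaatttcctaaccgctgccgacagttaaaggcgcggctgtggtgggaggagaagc
Ifit1: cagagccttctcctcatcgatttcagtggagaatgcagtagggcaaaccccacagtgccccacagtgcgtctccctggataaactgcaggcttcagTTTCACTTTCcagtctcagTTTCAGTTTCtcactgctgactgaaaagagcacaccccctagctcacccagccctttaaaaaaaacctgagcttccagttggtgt
Ifit3: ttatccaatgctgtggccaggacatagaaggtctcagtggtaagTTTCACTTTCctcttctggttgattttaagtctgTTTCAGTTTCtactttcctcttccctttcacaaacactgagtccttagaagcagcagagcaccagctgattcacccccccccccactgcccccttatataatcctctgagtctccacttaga
Irf1: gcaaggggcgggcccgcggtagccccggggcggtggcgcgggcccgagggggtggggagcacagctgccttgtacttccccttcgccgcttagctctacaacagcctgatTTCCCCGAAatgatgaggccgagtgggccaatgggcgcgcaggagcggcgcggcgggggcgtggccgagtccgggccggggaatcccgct

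Ifit1 and Ifit3 each held 2 ISRE cores in these stretches and Rsad2 held 1, which began 120 bases before its start. Cmpk2 held no match to these letters, and neither did Irf1, whose GAS core began 90 bases before the start. The Irf1 stretch shown was taken from the window that held this core. The other Irf1 window held no GAS core. Windows from 250 bases before to 50 after the start were found for 25 of the 34 genes. An ISRE core lay in 13 of these 25 (52.0%), against 3.99% of 27025 genes with a window. A GAS core lay in 6 of 25 (24.0%), against 9.55%. The looser NF-kappaB pattern of GGG and CC with 5 bases between lay in 20 of 25 (80.0%), against 53.5%, and base composition of promoters affects such shares. ISRE cores may overlap one another, as the pair in Oas1a and the 3 in Isg15 did. A match is a match of letters and shows no binding.

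Most interferon-stimulated genes read highest in the untreated culture and lower on each of the 3 arrays with TGF-beta2, whether or not an inhibitor was present. The untreated array held the top reading for 25 of the 31 genes, while it did so for 22.2% of the 11744 genes kept. For the 31 genes the median distance between the highest and lowest array was 0.64 (log2) over all 4 arrays. Over the 3 arrays with TGF-beta2 it was 0.33, and a distance over part of the arrays cannot exceed that over all. Over those 3 no member reached 2-fold at its brightest probe set. For all genes kept the same medians were 0.38 and 0.32. Differences are on the log2(signal + 21.7) scale throughout, which understates those of dim genes.

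**Figure D1:**
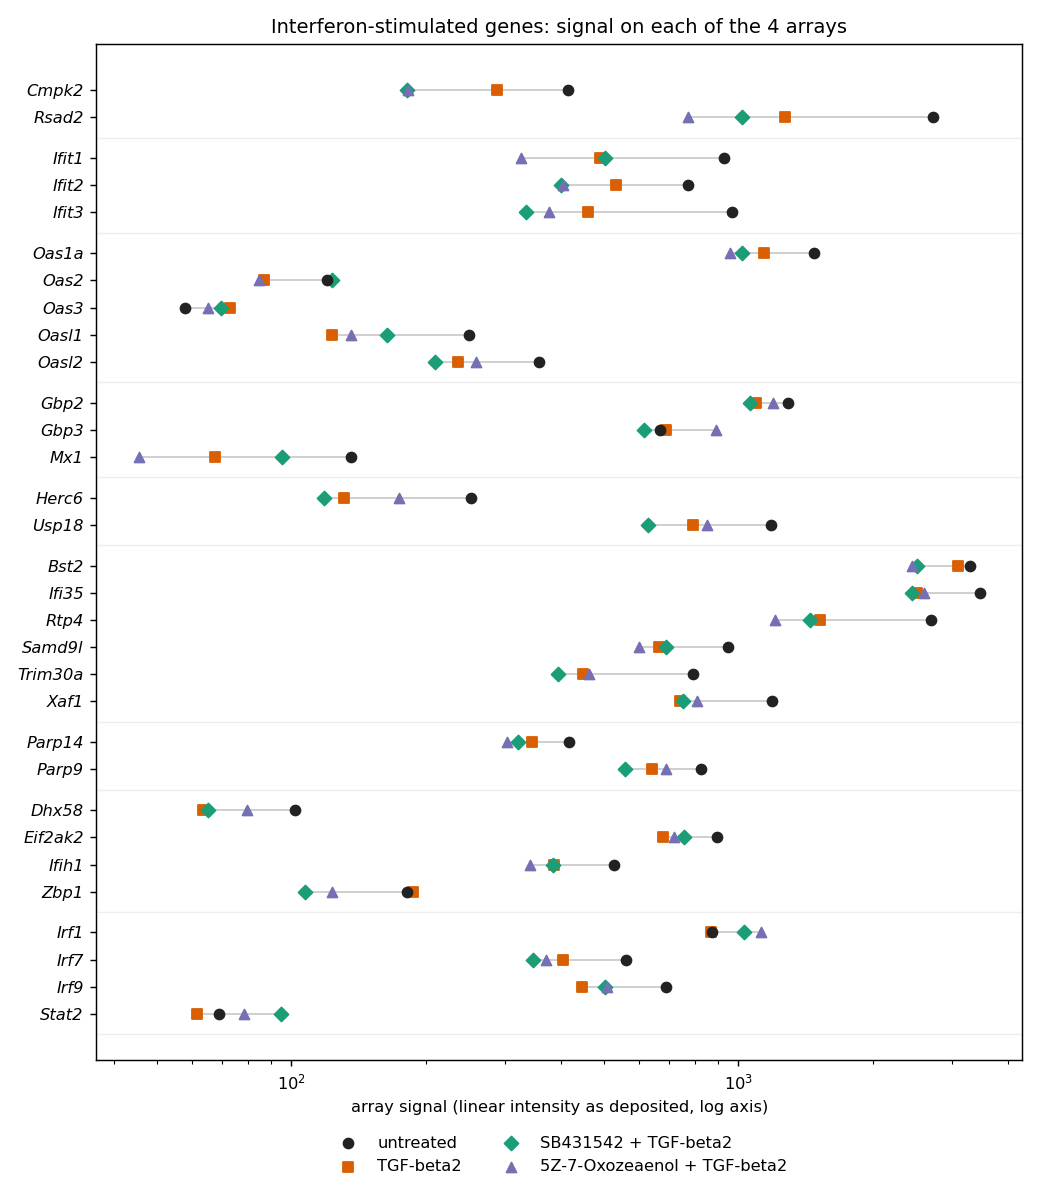
Signal of each of the 31 interferon-stimulated genes kept (rows, grouped by role) on the 4 arrays, as deposited linear intensity on a log axis, with 1 point per array and a grey line from lowest to highest. The black untreated point is the rightmost for 25 genes; Rsad2 spans 770 to 2730.

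The comparison of TGF-beta2 with untreated asks what 120 minutes of the ligand alone goes with. Rsad2 (2.13-fold) and Ifit3 (2.05-fold) were at least 2-fold lower, 2 of 31 genes against 0.366% of all genes kept, and none was at least 2-fold higher, against 0.673%. A smaller size, 1.5-fold, was added after the data had been seen. By it 10 of 31 were lower with TGF-beta2, against 2.46% of all genes kept. The median difference of the 31 genes was −0.50, and that of all genes kept was −0.03. Without the signal filter 2 of 32 genes were at least 2-fold lower, against 1.53% of all 18193 genes.

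With SB431542 and TGF-beta2 over untreated, Ifit3 (2.77-fold), Rsad2 (2.65-fold) and Cmpk2 (2.16-fold) were at least 2-fold lower, 3 of 31 against 0.383%, and none was higher, against 0.468%. By the 1.5-fold size 13 of 31 were lower, against 2.40%, and the median was −0.53, against −0.01 for all genes kept. With oxozeaenol and TGF-beta2 over untreated, 6 of 31 were at least 2-fold lower, against 1.51%, and none was higher, against 1.49%. They were Rsad2 (3.48-fold), Ifit1 (2.73-fold), Ifit3 (2.48-fold), Mx1 (2.35-fold), Rtp4 (2.21-fold) and Cmpk2 (2.14-fold). By the 1.5-fold size 12 of 31 were lower, against 5.25%, and the median was −0.48, against 0.03.

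The direct comparisons of the inhibitors with TGF-beta2 alone ask whether blocking a kinase moves these levels. With SB431542 over TGF-beta2 alone no member was 2-fold apart at its brightest probe set, against 0.613% of all genes kept higher and 1.18% lower. The differences ran from −0.70 (Zbp1) to 0.49 (Stat2) with a median of −0.07. A dimmer kept probe set of Herc6, described below, did pass 2-fold here and between the inhibitors. With oxozeaenol over TGF-beta2 alone none was 2-fold apart either, against 1.82% higher and 2.17% lower, and the range was −0.70 (Rsad2) to 0.36 with a median of −0.03. Between the inhibitors, oxozeaenol over SB431542, none reached 2-fold at its brightest probe set, against 1.51% higher and 1.30% lower. That range was −0.80 (Mx1) to 0.52 (Gbp3), with a median of 0.01. With SB431542 27 of the 31 genes read below untreated, against 51.0% of all genes kept. The same counts were 27 of 31 with oxozeaenol, against 46.7%, and 28 of 31 with TGF-beta2 alone, against 56.0%.

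**Figure D2:**
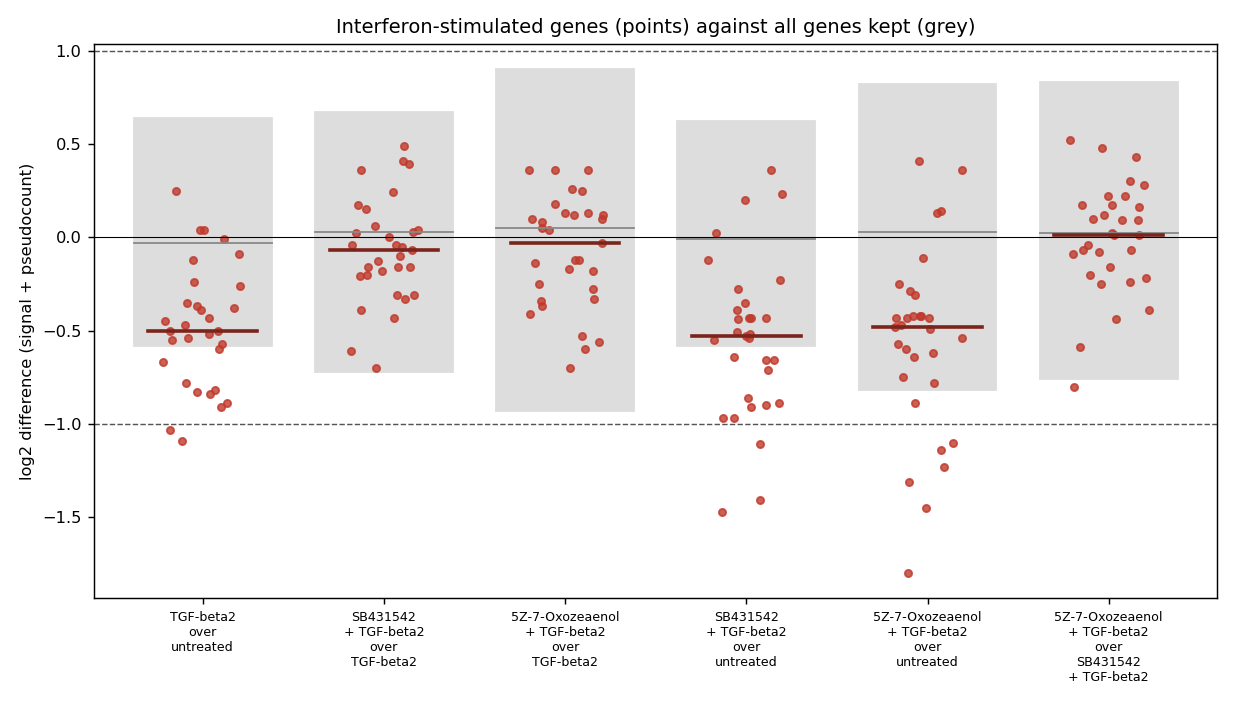
Log2 difference of the 31 interferon-stimulated genes (points, with a dark bar at their median) in each of the 6 comparisons, over the range that holds the central 95% of all 11744 genes kept (grey box, thin line at their median); dashed lines mark 2-fold. The points sit low in the 3 comparisons over untreated, with medians of −0.50, −0.53 and −0.48, and around 0 in the other three.

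Rsad2 encodes viperin, a radical SAM enzyme that makes an antiviral nucleotide, and Cmpk2, a mitochondrial nucleotide kinase, is its neighbour. Their annotated starts lie 12.8 kb apart on chromosome 12 and they are read in opposite directions. Rsad2 read 2730 untreated, 1268 with TGF-beta2, 1016 with SB431542 and 770 with oxozeaenol. It thus stood highest untreated and lowest with oxozeaenol, and its difference from untreated was −1.09, −1.41 and −1.80 in the same order. Its other kept probe sets also read highest untreated. One went from 1120 to 460, 446 and 291, the dimmer from 417 to 187, 243 and 190. Cmpk2 read 416 untreated, 288 with TGF-beta2, 181 with SB431542 and 182 with oxozeaenol. TGF-beta2 alone was the intermediate array for Cmpk2, and both inhibitor arrays lay lower still by about equal amounts, −0.61 and −0.60 from TGF-beta2 alone. The other Cmpk2 probe set, below the filter, read 40.6, 35.0, 47.5 and 43.2 and was highest with SB431542. The Cmpk2 values thus rest on 1 probe set.

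The Ifit genes encode tetratricopeptide proteins that bind viral RNA and hold back its translation. Ifit1 read 927 untreated, 489 with TGF-beta2, 502 with SB431542 and 326 with oxozeaenol. Ifit2 read 771, 531, 400 and 406 in that order, and Ifit3 read 965, 460, 335 and 376. All 3 read highest untreated. Ifit1 was lowest with oxozeaenol, 0.59 (log2) below SB431542, whereas Ifit2 and Ifit3 differed between the inhibitors by 0.02 and 0.16. Each Ifit gene was represented by 1 probe set.

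The oligoadenylate synthetases make the second messenger that activates RNase L, and the Oasl genes are their relatives, of which Oasl1 restrains Irf7 translation. Oas1a read 1479 untreated, 1141 with TGF-beta2, 1017 with SB431542 and 957 with oxozeaenol. Oasl1 read 249, 123, 164 and 136 in that order, and Oasl2 357, 236, 209 and 259. These 3 were highest untreated, with differences of −0.37 to −0.91 with TGF-beta2. Oas2 was split, with 120 untreated and 123 with SB431542 against 86.8 with TGF-beta2 and 84.7 with oxozeaenol. Oas3 was the 1 member lowest on the untreated array, where it read 57.8, and it read between 65.2 and 72.8 on the others, near the filter level. The mouse Oas1 genes are close relatives, and how far the Oas1a probe set also reads them is not known here.

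Mx1, a dynamin-like GTPase that traps viral ribonucleoproteins, read 136 untreated, 67.4 with TGF-beta2, 95.3 with SB431542 and 45.5 with oxozeaenol. Its oxozeaenol reading was under the filter level of 66.1, so the size of that difference depends on the pseudocount, and it became −0.84 with the pseudocount at the median of all values. The guanylate-binding proteins are large GTPases that attack pathogen vacuoles and respond chiefly to interferon gamma. Gbp2 read 1289, 1092, 1059 and 1197, highest untreated but within a range of 0.28 (log2). Gbp3 read 667, 688, 614 and 892 and was highest with oxozeaenol. The Gbp2 probe set has a name ending used for probes that can cross-hybridise, and its other probe set had differences of −0.24, −0.34 and 0.00 from untreated.

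Usp18 removes Isg15 from proteins and dampens receptor signalling, and Herc6 is the main mouse ligase that attaches Isg15. Usp18 read 1184 untreated, 791 with TGF-beta2, 626 with SB431542 and 850 with oxozeaenol. It was highest untreated and lowest with SB431542. Herc6 followed the same order at its brightest probe set, with 252, 131, 118 and 174. Its other kept probe sets did not, with TGF-beta2 differences of 0.30 and −0.19, so the Herc6 values rest on 1 probe set. The first of these others read 131, 166, 22.8 and 115, and its SB431542 reading lay under the filter level. There SB431542 stood at −2.08 from TGF-beta2 alone and −1.78 from untreated, and oxozeaenol at 1.62 from SB431542.

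Rtp4, an interferon-induced negative regulator of the response, read 2700 untreated, 1523 with TGF-beta2, 1446 with SB431542 and 1209 with oxozeaenol. Xaf1, a pro-apoptotic adaptor, read 1186, 738, 751 and 807 in that order. Samd9l, a growth-restraining antiviral factor, read 945, 663, 690 and 599. In these 3 genes the untreated array stood above the others, which lay within 0.33 (log2) of one another. Trim30a, a tripartite motif protein, read 791, 450, 394 and 462, and its other probe set gave −0.60, −0.72 and −0.80 from untreated. Ifi35, a leucine zipper protein, differed by −0.47, −0.51 and −0.42, and its dimmer probe sets by −0.16 to −0.46. Bst2, the tetherin that holds budding virions on the cell surface, read 3295 untreated and 3102 with TGF-beta2, a difference of −0.09, against 2506 with SB431542 and 2439 with oxozeaenol. Parp9 and Parp14, Parp-family proteins of interferon signalling, were lower by smaller amounts, with differences from −0.25 to −0.55 from untreated.

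**Figure D3:**
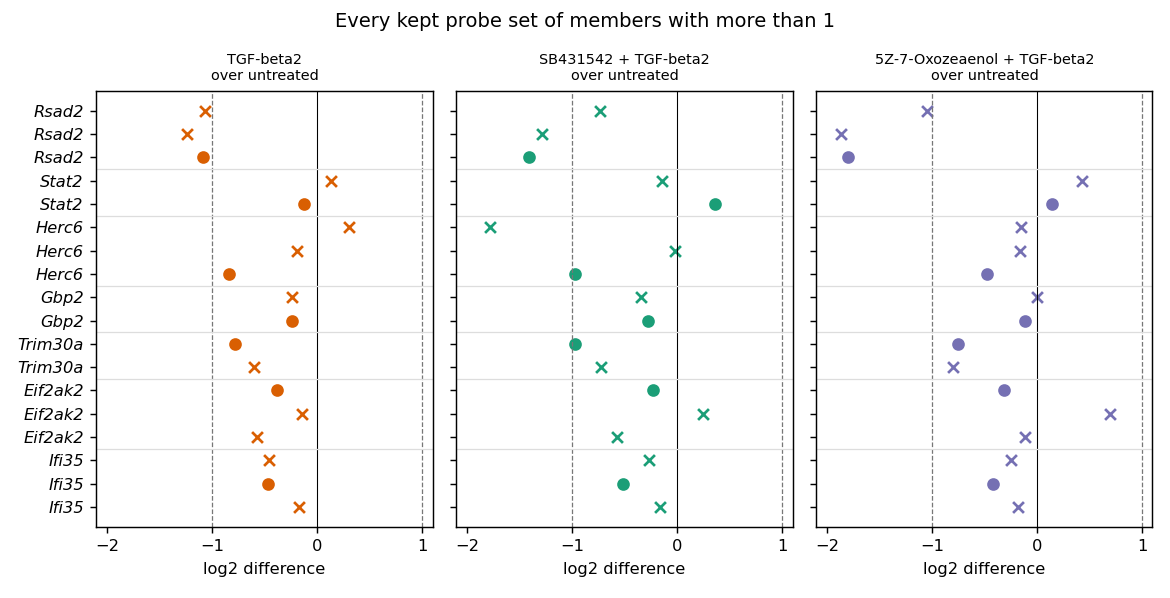
Log2 difference from untreated of every kept probe set of the 7 genes with more than 1 (rows), for TGF-beta2, SB431542 with TGF-beta2 and oxozeaenol with TGF-beta2 (panels); circles are the brightest probe set, which stands for the gene, crosses are the others, and dashed lines mark 2-fold. The 3 Rsad2 probe sets lie left of 0 in every panel, from −0.73 to −1.87, while those of Herc6, Stat2 and Eif2ak2 do not share a direction throughout.

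Among the sensors of nucleic acid, Ifih1 (Mda5), which detects long double-stranded RNA, read 528 untreated, 386 with TGF-beta2, 385 with SB431542 and 342 with oxozeaenol. Dhx58 (Lgp2), a regulator of Ifih1, read 102, 63.5, 65.1 and 79.7. Eif2ak2 (PKR), which halts translation, read 893, 679, 756 and 717 at its brightest probe set, and its other probe sets differed in direction with oxozeaenol, at 0.70 and −0.11. Zbp1, a sensor of Z-form nucleic acid, was alike untreated (181) and with TGF-beta2 (187) and lower with SB431542 (107) and oxozeaenol (123). Its other probe set, below the filter, read 102, 32.6, 65.6 and 54.3 and was lowest with TGF-beta2 alone. The Zbp1 values thus rest on 1 probe set.

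The transcription factors of the pathway were divided. Irf7, the amplifier of type I interferon production, read 560 untreated, 404 with TGF-beta2, 347 with SB431542 and 371 with oxozeaenol. Irf9, the DNA-binding part of ISGF3, read 688, 447, 504 and 509. Both were highest untreated. Irf1 did not follow, with 874 untreated, 869 with TGF-beta2, 1031 with SB431542 and 1125 with oxozeaenol, a difference of −0.01 with TGF-beta2 alone. Stat2 was near the filter level, between 61.5 and 94.8, and its probe sets differed in direction.

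Members with and without an ISRE core are given side by side, with no test. The 12 kept genes with a core in their window had medians of −0.38 (TGF-beta2), −0.41 (SB431542) and −0.51 (oxozeaenol) over untreated, and the 11 without one had −0.52, −0.64 and −0.54. The remaining 8 had no window in the table.

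Genes up and down the pathway were taken from lists that hold no members. Of 56 other interferon-stimulated genes kept, of 70 listed, 1 was at least 2-fold lower with TGF-beta2, against 0.366% of all genes kept. None was higher, against 0.673%, and the median was −0.29, against −0.03. With SB431542 over untreated none was 2-fold apart, against 0.383% lower and 0.468% higher, and the median was −0.30, against −0.01. With oxozeaenol over untreated 2 were lower, against 1.51%, and none higher, against 1.49%. The median was −0.26, against 0.03. Below untreated stood 51 of the 56 with TGF-beta2, 50 with SB431542 and 42 with oxozeaenol, against 56.0%, 51.0% and 46.7% of all genes kept. Ifit1bl1, an Ifit relative, read 184 untreated, 34.9 with TGF-beta2, 114 with SB431542 and 62.6 with oxozeaenol. It was the 1 gene counted with TGF-beta2 and 1 of the 2 with oxozeaenol. Both of those readings lay under the filter level of 66.1, so the sizes of these differences depend on the pseudocount. Ifi204, a DNA-binding p200 protein, read 406, 338, 215 and 158. Among bright genes of this list, Ifitm3, which blocks virus entry, read 16690, 16429, 15985 and 15022. B2m, the class I light chain that also stands among the level controls, read 14124, 15290, 15877 and 14400. In neither did the untreated array stand apart. H2-D1 read 6998, 7515, 6890 and 6433 and was highest with TGF-beta2 alone. Ifitm2 read 7187, 4473, 5670 and 5631 and was highest untreated, with a difference of −0.68 with TGF-beta2. Cxcl10, an interferon-induced chemokine that was outside the naming rule and was picked after its values were seen, read 698, 524, 385 and 359.

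Transcripts of interferons themselves were mostly dim. Of 9 interferon ligand genes with a probe set, 7 lay below the filter, including Ifnb1, which read 38.7 untreated and 51.8, 42.9 and 39.6 on the other arrays. The other 2, Ifna1 and Ifnz, were within 2-fold throughout. Ifna1 read 113 untreated, 87.7 with TGF-beta2, 124 with SB431542 and 75.5 with oxozeaenol, at a probe set with the name ending described for Gbp2. Ifnz read 158, 235, 267 and 234 in that order and was lowest untreated. Of 17 receptor and Jak-Stat genes kept, none was 2-fold apart with TGF-beta2 or with SB431542 over untreated. The shares of all genes kept were 0.366% lower and 0.673% higher with TGF-beta2, and 0.383% and 0.468% with SB431542. The list's medians were 0.00 and −0.11, against −0.03 and −0.01. With oxozeaenol Socs3, a feedback inhibitor of cytokine receptors, was the 1 gene of 17 at least 2-fold lower, against 1.51% of all genes kept. It read 505 against 1447 untreated and 2147 with TGF-beta2, and the list's median was −0.19, against 0.03. Jak1 and Ifnar2, the latter outside the naming rule and picked after its values were seen, read higher on each array with TGF-beta2 than untreated, by 0.17 to 0.39. Other bright genes of the list did not. Il10rb read 2878, 2745, 2423 and 1992, Stat3 2685, 2723, 2209 and 2344, and Ptpn11 3773, 3761, 3748 and 3393. With TGF-beta2, SB431542 and oxozeaenol, 9, 11 and 12 of the 17 read below untreated, against 56.0%, 51.0% and 46.7% of all genes kept. Of 17 sensing genes kept, Tlr4, the receptor for bacterial lipopolysaccharide, was the 1 gene 2-fold apart from untreated. It read 135 with oxozeaenol against 370 untreated, a comparison in which 1.51% of all genes kept were lower. The list's medians were −0.26, −0.10 and −0.10, against −0.03, −0.01 and 0.03. Ddx58, the RNA sensor Rig-I, which is also in the list of other interferon-stimulated genes and was likewise picked after its values were seen, read 1318, 932, 885 and 858. The brightest gene of the sensing list, Tbk1, was lowest untreated, with 2258, 2408, 2479 and 3132. The next brightest were Azi2 (1380, 1329, 1303 and 1286), Tank (1618, 1079, 1207 and 1211) and Adar (1179, 1017, 981 and 931).

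NF-kappaB feedback targets behaved otherwise. Of 17 kept, 8 were at least 2-fold lower with oxozeaenol than untreated, against 1.51% of all genes kept. They were Ccl2, Ccl7, Tnf, Il6, Tnfaip3, Nfkbie, Nfkbiz and Bcl3. None of the 17 was higher, against 1.49%, and the median was −0.57, against 0.03. With SB431542 none was 2-fold apart, against 0.383% lower and 0.468% higher, and the median was −0.04, against −0.01. With TGF-beta2 alone Il6 was the 1 gene 2-fold apart, higher by 1.66, against 0.673% of all genes kept. The median was 0.10, against −0.03. The chemokine Ccl2 read 5185 untreated, 4180 with TGF-beta2, 5362 with SB431542 and 714 with oxozeaenol, and Tnfaip3, an inhibitor of NF-kappaB, 611, 726, 592 and 188. In this list the oxozeaenol array stood apart, whereas among the 31 interferon-stimulated genes the untreated array did.

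**Figure D4:**
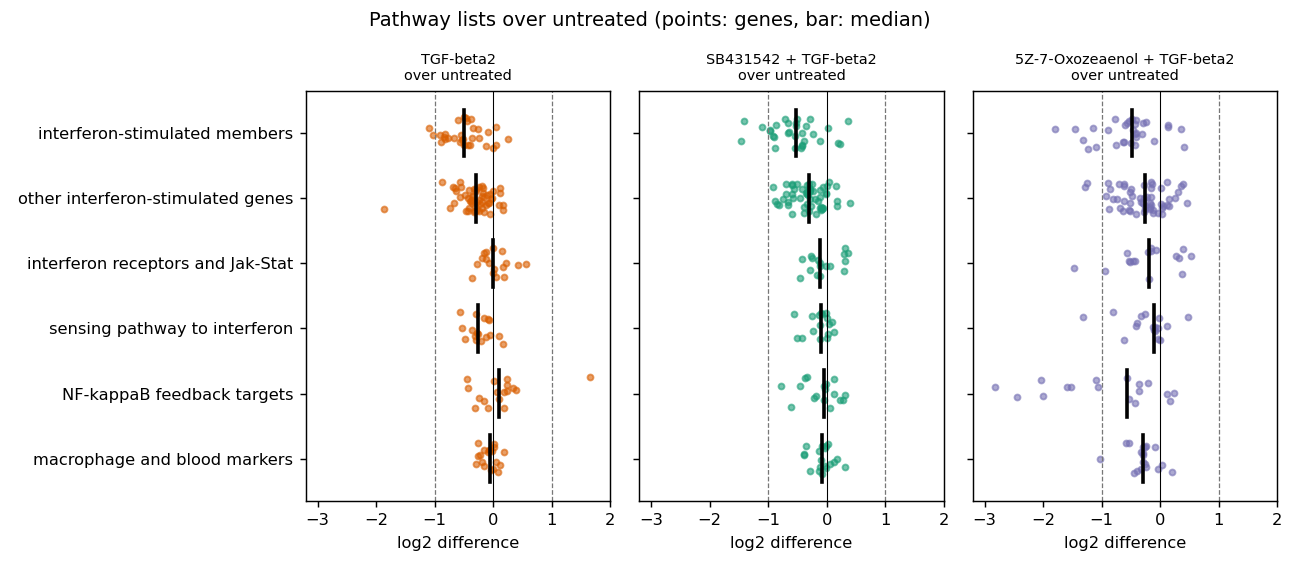
Log2 difference from untreated for each kept gene (points) of the interferon-stimulated set and of 5 other lists (rows), with a black bar at each list's median and dashed lines at 2-fold, on the 3 arrays with TGF-beta2 (panels). The medians of both interferon-stimulated lists lie left of 0 in every panel, with values of −0.50, −0.53 and −0.48 for the named set, and NF-kappaB targets spread to −2.82 with oxozeaenol.

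The cultures carried RNA of macrophages beside that of mesenchyme. All 19 macrophage and blood markers with a probe set, of 20 listed, passed the filter, none was near 0, and their summed signal was 133376 untreated, 131424 with TGF-beta2, 132583 with SB431542 and 116096 with oxozeaenol. Their medians over untreated were −0.06, −0.08 and −0.29, against −0.03, −0.01 and 0.03 for all genes kept. Cd14 was the 1 gene of these 19 at least 2-fold lower with oxozeaenol, against 1.51%. Of 15 palatal mesenchyme markers 14 passed, with sums of 89183 to 102241. With TGF-beta2 over untreated 2 of these 14 were at least 2-fold lower, against 0.366% of all genes kept. They were the transcription factor Osr1 (−1.39) and the growth factor receptor Pdgfra (−1.09). By the 1.5-fold size 4 of the 14 were lower, Shox2 (−0.80) and Twist1 (−0.69) included, against 2.46%. Osr1 read 496 untreated, 176 with TGF-beta2, 953 with SB431542 and 667 with oxozeaenol, and Pdgfra 3643, 1704, 3835 and 3386, so both were lowest with TGF-beta2 alone. The part of these marker differences in those of the interferon-stimulated genes was not tested. Of 11 endothelial markers 3 passed and of 10 skeletal muscle markers with a probe set 4 passed, with sums of at most 625 and 1731. Epithelial markers, 9 of 11 kept, summed to 2183 to 2325 on 3 arrays and to 6140 with oxozeaenol. There 3 of the 9, the keratins Krt14, Krt5 and Krt19, were at least 2-fold higher than untreated, against 1.49% of all genes kept. Which cell type the interferon-stimulated transcripts came from was not tested, and in bulk RNA fewer cells of a type and less RNA per cell cannot be told apart. The 8 level controls kept lay between −0.11 and 0.20 in the comparisons over untreated.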

How the data were processed

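Values are intensities of 45101 Affymetrix probe sets on 4 arrays, 1 per culture, deposited by the authors on a linear scale in 1 table. The labels' protocols give 500 ng as the RNA input for amplification and biotin labelling. The submitters' processing notes name GCOS, with version and settings not stated. The mean of each array without the lowest and highest 2% was 500.0, so the arrays had been scaled before deposit. Medians lay between 66.3 and 72.7.

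After 64 control probe sets were left out, 34945 had 1 gene symbol in the platform annotation, 932 had several and 9160 had none. Intensities became log2(value + 21.7), the pseudocount being the 25th percentile of all values. Probe sets were kept when their mean reached the median of all (a signal of about 66.1), and the brightest stood for its gene, which left 11744 genes. A fixed size of 2-fold counted genes. Members and gene lists were chosen with earlier results of these data known. Genes outside the members were named when 2-fold apart in a comparison or, up to 4 per list, among its brightest; others are marked. Promoters came from RefSeq (GRCm38.p6). The counting was tested on simulated data. Alternatives were other pseudocounts, filters, scalings and averaging of probe sets. Python 3.11.15, pandas 2.3.3 and numpy 2.4.6 were used.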

Additional observations from a re-analysis of the deposited data

How the results depend on the processing

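With 1 array per condition nothing could be left out within a group, and no paired analysis was possible because no group has a second array. Over 7 alternatives (pseudocount at the 10th percentile or the median, no filter, a stricter filter, quantile normalization, median centring, mean of probe sets) the medians of the interferon-stimulated genes over untreated stayed between −0.45 and −0.51 with TGF-beta2, −0.50 and −0.56 with SB431542, and −0.44 and −0.56 with oxozeaenol. With no spread between cultures, a median counted as moved when it shifted by over 1.5-fold, and none did. Medians of the other 3 comparisons lay between −0.16 and 0.09, and those with oxozeaenol over TGF-beta2 alone and over SB431542 took either sign. With the pseudocount at the median, the count at least 2-fold lower with TGF-beta2 over untreated was 1 of 30 in place of 2 of 31, and the share of all genes 0.179% in place of 0.366%. Of 74 values under alternatives of genes that were 2-fold lower as reported, 70 stayed on their side of 2-fold, and the same setting took Ifit3 with TGF-beta2 (−0.96), Cmpk2 with SB431542 (−0.95) and with oxozeaenol (−0.95) and Mx1 with oxozeaenol (−0.84) under 2-fold. Herc6 became at least 2-fold lower with SB431542 over untreated, making 4 genes in place of 3, under quantile normalization and under the smaller pseudocount. The stricter filter kept 19 of the 31 genes. Signals near the filter level of 66.1 (Oas3, Stat2, Dhx58, Mx1) limit what those genes show.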

Other observations

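A probe set that the annotation pairs with both Isg15 and Gm9706 was left out of the set because it cannot be assigned to either. It read 2410 untreated, 1974 with TGF-beta2, 1437 with SB431542 and 1424 with oxozeaenol, so it too was highest untreated. Another, paired with both Trim30d and Trim30a, read 221, 151, 187 and 164 in the same order.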
